A study of Mus musculus with 16 samples.

Results

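The 7 genes described here encode the inhibitors of cyclin-dependent kinases (CDKs): Cdkn1a, Cdkn1b and Cdkn1c of the Cip/Kip family and Cdkn2a, Cdkn2b, Cdkn2c and Cdkn2d of the INK4 family. They were chosen by name, as the members of these families, out of 22367 protein-coding genes annotated on the mouse genome build mm9. For each gene, peaks of 3 histone marks were sought within 3000 bp of any annotated transcription start site (TSS) and over the gene body, and the Cip/Kip genes, Cdkn2c and Cdkn2d were set beside the locus that Cdkn2a and Cdkn2b share.

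The study mapped H3K4me3, H3K27me3 and H3K9me3 by chromatin immunoprecipitation and sequencing (ChIP-seq) in cells sorted from mouse skin. Hair follicle stem cells (HFSCs) were sorted as CD34+ α6-integrin+ cells, and the non-HFSCs of the same skins as CD34- α6-integrin+ cells, a mixture held to be mostly epidermis and lower outer root sheath. Cells were taken in early anagen (EA, postnatal days (PD) 22 to 25), when follicles begin to grow, and in late catagen (LC, PD38 to PD44), when HFSCs return to rest. This gave 4 populations, the EA-HFSCs and LC-HFSCs with their counterparts, named non-EA-HFSCs and non-LC-HFSCs, all from wild-type CD1 x FVB mice labelled as male. Cells of 15 to 20 mice were pooled, and their nuclei were cut with micrococcal nuclease. The 16 samples comprise 12 ChIP samples, each with 1 peak list, and 4 IgG controls, which served in peak calling and are not analysed further here.

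CDK inhibitors bind cyclin-dependent kinases or their complexes with cyclins and slow the passage from G1 into S phase. The Cip/Kip proteins p21 (Cdkn1a), p27 (Cdkn1b) and p57 (Cdkn1c) act on several cyclin-CDK complexes, whereas the INK4 proteins bind CDK4 and CDK6, the kinases that act with D-type cyclins on the retinoblastoma protein. The Cdkn2a gene gives a pair of unrelated proteins from separate promoters, the INK4 protein p16 (INK4a) and ARF, which acts through p53. Cdkn2a and Cdkn2b (p15) are a classical target of Polycomb repression, whose product is H3K27me3, whereas H3K4me3 marks active or poised promoters and H3K9me3 is best known from heterochromatin.

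The promoters differed in sequence as well as in marks. The 5 windows shown here stand for the states of H3K4me3 and H3K27me3 described below. ARF and Cdkn2b had both marks within 3000 bp, but H3K27me3 covered the Cdkn2b start itself only in EA-HFSCs and non-EA-HFSCs. INK4a had H3K27me3 without H3K4me3, its start covered in 3 populations. Cdkn1b had H3K4me3 without H3K27me3, and Cdkn2d had neither. Each runs from 250 bp before to 50 bp after the start, in the direction of transcription on mm9, and the capitals mark the dinucleotide CG (CpG).
ARF start of Cdkn2a, chr4:88940508-88940807, minus strand: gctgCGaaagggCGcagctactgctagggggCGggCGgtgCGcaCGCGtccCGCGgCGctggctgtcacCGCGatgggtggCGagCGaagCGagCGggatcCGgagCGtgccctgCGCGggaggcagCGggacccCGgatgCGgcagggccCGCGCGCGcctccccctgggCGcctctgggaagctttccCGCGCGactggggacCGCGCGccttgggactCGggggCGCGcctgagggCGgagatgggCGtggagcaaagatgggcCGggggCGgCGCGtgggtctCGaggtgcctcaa
INK4a start of Cdkn2a, chr4:88928047-88928346, minus strand: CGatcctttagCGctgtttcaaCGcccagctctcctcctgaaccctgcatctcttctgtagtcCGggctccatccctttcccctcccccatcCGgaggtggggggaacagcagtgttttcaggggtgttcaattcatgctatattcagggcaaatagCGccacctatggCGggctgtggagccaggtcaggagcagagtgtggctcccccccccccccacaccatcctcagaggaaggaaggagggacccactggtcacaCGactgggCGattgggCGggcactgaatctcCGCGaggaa
Cdkn2b start, chr4:88956892-88957191, minus strand: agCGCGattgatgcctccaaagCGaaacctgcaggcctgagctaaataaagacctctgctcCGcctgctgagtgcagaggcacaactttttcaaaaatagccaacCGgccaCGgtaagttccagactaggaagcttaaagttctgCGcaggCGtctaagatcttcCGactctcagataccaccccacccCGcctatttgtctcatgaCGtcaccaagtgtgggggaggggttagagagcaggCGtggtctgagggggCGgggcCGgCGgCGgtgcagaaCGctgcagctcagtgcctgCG
Cdkn1b start, chr6:134870169-134870468, plus strand: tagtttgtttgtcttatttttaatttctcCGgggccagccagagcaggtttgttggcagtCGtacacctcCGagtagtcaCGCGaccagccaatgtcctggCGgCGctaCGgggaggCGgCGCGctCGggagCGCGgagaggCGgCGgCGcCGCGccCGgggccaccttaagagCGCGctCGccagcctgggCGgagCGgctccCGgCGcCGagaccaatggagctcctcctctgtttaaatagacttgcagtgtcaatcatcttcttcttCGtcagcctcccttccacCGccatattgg
Cdkn2d start, chr9:21095604-21095903, minus strand: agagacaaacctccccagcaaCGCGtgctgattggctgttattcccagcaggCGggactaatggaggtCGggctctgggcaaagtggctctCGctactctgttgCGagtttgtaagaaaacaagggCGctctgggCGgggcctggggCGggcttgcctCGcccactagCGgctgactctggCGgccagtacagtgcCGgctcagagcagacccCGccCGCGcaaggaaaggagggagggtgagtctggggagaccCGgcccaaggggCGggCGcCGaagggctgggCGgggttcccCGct

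The ARF window held 44 CpG, more than 97.3% of the windows around the 69965 annotated starts of protein-coding genes, whose median was 10. It was drawn at the upstream of 2 annotated starts that lie 34 bp apart. The window of the other, where the transcript with the ARF first coding exon begins, held 45 CpG (97.7%). The Cdkn1c window held 40 CpG (above 95.2% of starts), that of Cdkn1b 30 (85.4%), the most CpG-rich window of Cdkn1a 23 (73.4%) and that of Cdkn2d 22 (71.4%). The remaining windows lay nearer the middle of the distribution, with 18 CpG at Cdkn2b (63.7%), 12 at INK4a (53.0%) and 8 at each of the 2 starts of Cdkn2c (43.6%). CpG number did not order these promoters by H3K4me3, because Cdkn2c with 8 CpG carried an H3K4me3 peak in all 4 populations and Cdkn2d with 22 in none.

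The 12 lists differed in size, which bears on every count below. H3K4me3 lists held 14718 to 24498 peaks, whereas H3K27me3 lists ran from 1909 peaks in LC-HFSCs to 25534 in EA-HFSCs and H3K9me3 lists from 1414 in LC-HFSCs to 42277 in EA-HFSCs. The read depth behind the lists cannot be read from them, and replicates were pooled by the study before peak calling, so populations are compared without replicates and without a test. The paper states that more reads were used in LC-HFSCs than in EA-HFSCs. The score of a peak is 10 times the negative log10 of the peak caller's p-value, reaches its ceiling near 3100 and depends on depth, and is therefore given as a description within its own list. The sort was checked by H3K4me3 at marker genes. All 8 markers of bulge stem cells had a peak at a start in both HFSC lists, and 7 of the 8 also had one in both non-HFSC lists, where Cd34, itself a marker of the sort, was without one. All 5 markers of basal epidermis had such a peak in all 4 lists, and none of 5 leukocyte markers had one in any. Of the other markers counted, H3K4me3 lay at 1 to 2 of 5 of melanocytes, 1 of 4 of endothelium and 2 to 3 of 4 of fibroblasts.

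**Figure D1:**
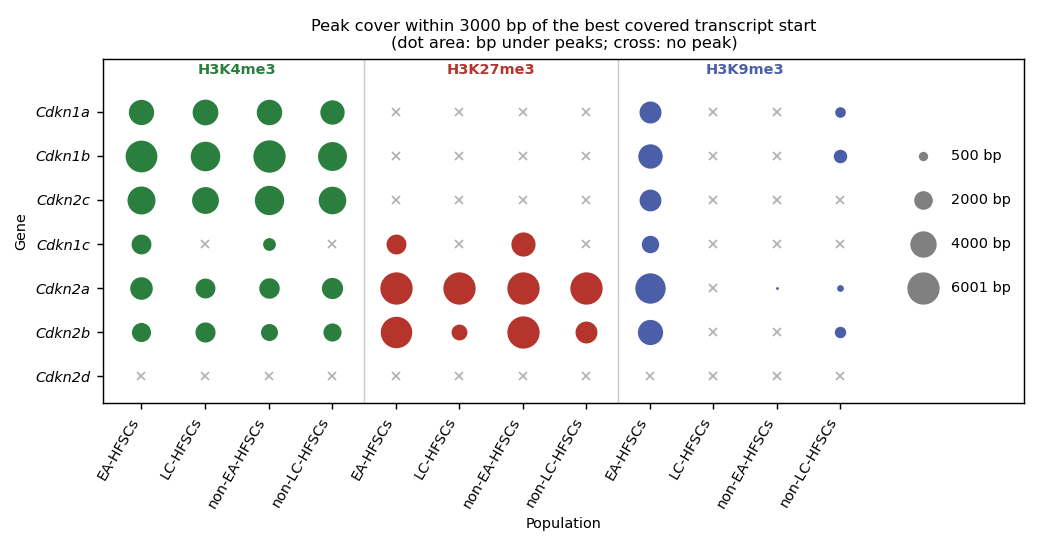
Length under peaks within 3000 bp of the best covered transcription start of each gene (rows), in bp by dot area, in the 4 populations for each of the 3 marks (columns); a cross means no peak. Cdkn1a, Cdkn1b and Cdkn2c have H3K4me3 and no H3K27me3 in all 4 populations, Cdkn2a and Cdkn2b have both in all 4, Cdkn1c has both in EA-HFSCs and non-EA-HFSCs, and Cdkn2d has no peak.

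The 7 genes fell into 4 patterns of H3K4me3 and H3K27me3. Cdkn1a, Cdkn1b and Cdkn2c had H3K4me3 and lacked H3K27me3 at their starts in all 4 populations, Cdkn2a and Cdkn2b had both marks in all 4, Cdkn1c had both in EA-HFSCs and non-EA-HFSCs and neither in the other 2, and Cdkn2d had no peak of any mark in any list. Of the 12 lists, 11 had a peak at a start of Cdkn2a, 10 at Cdkn2b, 6 at Cdkn1a, 6 at Cdkn1b, 5 at Cdkn1c, 5 at Cdkn2c and 0 at Cdkn2d. By presence or absence over the 12 lists, Cdkn1a and Cdkn1b were alike in 12, Cdkn2c was like each of them in 11, Cdkn2a and Cdkn2b were alike in 11, and Cdkn2a and Cdkn2d were least alike, with 1. Cdkn2c differed from Cdkn1a and Cdkn1b by the H3K9me3 list of non-LC-HFSCs, whereas it was like Cdkn1c in 8 lists, Cdkn2b in 7 and Cdkn2a in 6.

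Members marked with H3K4me3 at a start numbered 6 of 7 in EA-HFSCs, where 62.4% of all genes had such a peak, 5 in LC-HFSCs (55.9% of all genes), 6 in non-EA-HFSCs (61.7%) and 5 in non-LC-HFSCs (58.8%). H3K27me3 lay at a start of 3 members in EA-HFSCs (14.0% of all genes), 2 in LC-HFSCs (3.73%), 3 in non-EA-HFSCs (16.8%) and 2 in non-LC-HFSCs (12.9%). H3K9me3 lay at a start of 6 members in EA-HFSCs (47.9%), 0 in LC-HFSCs (0.505%), 1 in non-EA-HFSCs (4.14%) and 4 in non-LC-HFSCs (14.1%). With 7 genes, 1 gene is a large step, and since Cdkn2a and Cdkn2b share single H3K27me3 domains they are not separate observations.

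**Figure D2:**
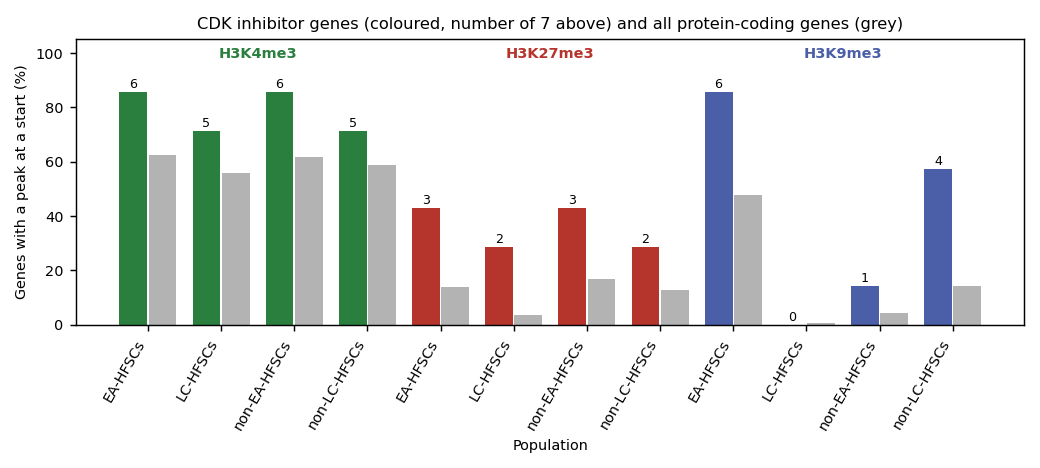
Percentage of the 7 CDK inhibitor genes (coloured bars, number of genes above) and of all 22367 protein-coding genes (grey bars) with a peak within 3000 bp of a transcription start, for the 4 populations and 3 marks. The members' bars stand above the grey ones in 11 lists, and in the H3K9me3 list of LC-HFSCs no member has a peak.

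Peaks over the gene body gave the same numbers of members. They were 6 for H3K4me3 in EA-HFSCs (63.1% of all genes), 5 in LC-HFSCs (56.0%), 6 in non-EA-HFSCs (62.2%) and 5 in non-LC-HFSCs (59.1%). For H3K27me3 they were 3 (14.7%), 2 (3.81%), 3 (17.0%) and 2 (13.4%) in the same order, and for H3K9me3 6 (51.1%), 0 (1.46%), 1 (13.4%) and 4 (22.2%).

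From EA-HFSCs to LC-HFSCs, 5 of the 6 members with H3K4me3 kept a peak, Cdkn1c being the one that did not (89.3% of all genes with the mark kept it). H3K27me3 was kept at 2 of 3, Cdkn2a and Cdkn2b, where 26.1% of all genes kept it, and H3K9me3 at 0 of 6, where 0.765% did. Over the same interval in non-HFSCs, H3K4me3 was kept at 5 of 6 (94.6% of all genes) and H3K27me3 at 2 of 3 (71.2%). The 1 member with H3K9me3, Cdkn2a, had it again (44.3%). The later peaks lay at other places, in the gene and upstream of it, and did not overlap the earlier one. Cdkn1c had H3K4me3 and H3K27me3 at early anagen and neither at late catagen, in HFSCs and non-HFSCs alike. When the 4 lists of a mark were cut to equal size by score, Cdkn1c had neither mark at its start in any population, so that H3K4me3 lay at the same 5 members and H3K27me3 at the same 2 in all 4, and the difference between the stages was not seen. H3K4me3 and H3K27me3 together lay at 3 members in EA-HFSCs (8.89% of all genes) and 2 in LC-HFSCs (1.30%), and all 3 marks at 3 members in EA-HFSCs (7.24%), namely Cdkn1c, Cdkn2a and Cdkn2b. Whether marks that overlap in a list lay on the same nucleosomes, on the same allele or in different cells of the population cannot be told apart.

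Cdkn1a, whose product p21 is the p53-induced inhibitor, lies on the plus strand at chr17:29227924-29237667 and has 3 annotated starts. The middle start, at position 29230717, lay under an H3K4me3 peak in all 4 populations, of 4186 bp in EA-HFSCs (score 1160), 4594 bp in LC-HFSCs (260), 4551 bp in non-EA-HFSCs (3100) and 3971 bp in non-LC-HFSCs (3153). Widths differed little between populations, and the middle of each peak fell in an intron. The first annotated start, at 29227924, was not covered in any list, the nearest H3K4me3 peak edge lying 2119, 1985, 2064 and 2388 bp downstream in the same order. The covered start was also the one with 23 CpG, against 2 at the first and 10 at the third, which the peaks stopped 614 to 924 bp short of.

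H3K9me3 at Cdkn1a took a different place in each of the 2 populations that had it. In EA-HFSCs a peak of 2784 bp (score 111) lay over the middle start on the H3K4me3 peak, whereas in non-LC-HFSCs a peak of 650 bp (score 75.6) lay in the untranslated part of the last exon, 1728 bp beyond the third start. LC-HFSCs and non-EA-HFSCs had none within the gene or 10 kb to either side. H3K27me3 was absent from the gene in all 4 lists, and within 10 kb it appeared as 1 peak of 628 bp (score 40.3) beyond the 3′ end in EA-HFSCs. A feature noticed after the values were seen was an H3K4me3 peak at the start of the noncoding transcript Gm16197, upstream of Cdkn1a, in LC-HFSCs (1205 bp, score 88.4), non-EA-HFSCs (1372 bp, 136) and non-LC-HFSCs (1351 bp, 266) and not in EA-HFSCs.

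Cdkn1b, which encodes p27, the inhibitor long linked to exit from the cell cycle, lies at chr6:134870419-134875531 on the plus strand and carried the widest H3K4me3 domain of the 7 genes. In EA-HFSCs a single peak of 11498 bp (chr6:134869062-134880559, score 2644) covered 100% of the gene body and ranked 56 by width in its list, within the widest 0.261%. The peak over the start measured 5767 bp in LC-HFSCs (score 965, rank 326, 2.21%), 8593 bp in non-EA-HFSCs (3100, rank 80, 0.327%) and 5732 bp in non-LC-HFSCs (3100, rank 202, 1.06%). In those 3 populations the marked region was broken near the 3′ end of the gene, with 82.6%, 86.3% and 86.7% of the body covered and a separate peak downstream of 3378, 4802 and 4284 bp. Upstream of the start a further H3K4me3 peak, outside any protein-coding gene, measured 3103 bp in EA-HFSCs (score 435), 1651 bp in LC-HFSCs (202) and 1577 bp in non-LC-HFSCs (833), whereas in non-EA-HFSCs this stretch was part of the main peak.

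Counted over the gene and 10 kb to either side, a region of 25.1 kb, H3K4me3 covered 15.9 kb in EA-HFSCs, 10.8 kb in LC-HFSCs, 14.6 kb in non-EA-HFSCs and 11.6 kb in non-LC-HFSCs. Both early anagen populations thus had the greater cover, and whether list depth had a part in this was not tested, although the list totals were 56.1, 37.7, 48.8 and 37.5 Mb in the same order. No H3K27me3 peak came closer to the Cdkn1b start than 119000 bp in EA-HFSCs, 1250201 bp in LC-HFSCs, 63068 bp in non-EA-HFSCs and 65463 bp in non-LC-HFSCs. H3K9me3 lay over the start in EA-HFSCs (3398 bp, score 157) and in non-LC-HFSCs (1052 bp, score 41.7), within the H3K4me3 domain both times, and EA-HFSCs had 2 further H3K9me3 peaks beside it, of 982 and 2658 bp, also on H3K4me3.

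Cdkn2c, which encodes the INK4 protein p18, lies at chr4:109333481-109339794 on the minus strand and has starts at 109339794 and 109337977. A single H3K4me3 peak covered both starts in every population, with 4509 bp in EA-HFSCs (score 3100), 4150 bp in LC-HFSCs (478), 5165 bp in non-EA-HFSCs (3100) and 4378 bp in non-LC-HFSCs (3100). Between 53.8% and 59.7% of the gene body was covered, a narrow range over the 4 populations. The nearest H3K27me3 peak to the upstream start was 27825 bp away in EA-HFSCs, 304643 bp in LC-HFSCs, 119183 bp in non-EA-HFSCs and 302397 bp in non-LC-HFSCs. H3K9me3 was found over the gene in EA-HFSCs as 1 peak of 2740 bp (score 75.7) inside the H3K4me3 peak. Another EA-HFSC peak, of 1023 bp (score 44.1) in the neighbouring gene Faf1, reached within 10 kb of Cdkn2c. The other 3 populations had no H3K9me3 within 10 kb of the gene.

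Cdkn1c, which encodes p57 and is an imprinted gene expressed from the maternal allele, lies at chr7:150644255-150646955 on the minus strand. H3K4me3 at its start measured 2263 bp in EA-HFSCs (score 152) and 941 bp in non-EA-HFSCs (124). In LC-HFSCs the nearest H3K4me3 peak was 40184 bp upstream, and in non-LC-HFSCs 3236 bp upstream, a peak of 1225 bp (score 92.7) just outside the window. These are low scores beside the H3K4me3 peaks of Cdkn1a, Cdkn1b and Cdkn2c in the same lists.

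H3K27me3 at Cdkn1c appeared in the same 2 populations as H3K4me3. It measured 2275 bp in EA-HFSCs (score 53.0), over 74.9% of the gene body, and 6267 bp in non-EA-HFSCs (339), over 100%. LC-HFSCs had no H3K27me3 peak nearer than 561574 bp, and in non-LC-HFSCs the nearest lay 6500 bp downstream of the start. H3K9me3 was present in EA-HFSCs as peaks of 955 bp (score 77.2) and 800 bp (score 68.9), which overlapped both other marks, and was not found within 10 kb in the other 3 populations. Peak lists do not separate the parental alleles, so marks on the expressed and the silent copy of Cdkn1c cannot be told apart.

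A larger H3K27me3 region lay 3′ of Cdkn1c, outside protein-coding genes between Cdkn1c and Kcnq1. Its widest peak measured 7202 bp in EA-HFSCs (score 1002), 13468 bp in non-EA-HFSCs (1088) and 10184 bp in non-LC-HFSCs (1576), and LC-HFSCs had none. The region was therefore present in non-LC-HFSCs, where the Cdkn1c start itself lacked H3K27me3. Of the neighbours within 50 kb, Slc22a18, a transporter gene of the same imprinted domain, had H3K4me3 at its start in EA-HFSCs (score 352), non-EA-HFSCs (111) and non-LC-HFSCs (146) and not in LC-HFSCs, and Phlda2, also imprinted there, had it in all 4.

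Cdkn2d, which encodes the INK4 protein p19, lies at chr9:21092907-21095653 on the minus strand and had no peak at its start or over its body in any of the 12 lists, a state shared with 26.9% of all genes (no peak at a start in any list). The nearest H3K4me3 peak lay 3735 bp from the start in EA-HFSCs (1157 bp, score 63.5), 4011 bp in non-EA-HFSCs (1269 bp, 100) and 3779 bp in non-LC-HFSCs (772 bp, 132). All 3 were beyond the 3′ end of Cdkn2d, in an intron of the neighbouring gene Kri1. In LC-HFSCs the nearest was 19916 bp upstream, at the start of Ap1m2. A missing peak means that the caller's threshold was not passed and does not show that the mark was absent.

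**Figure D3:**
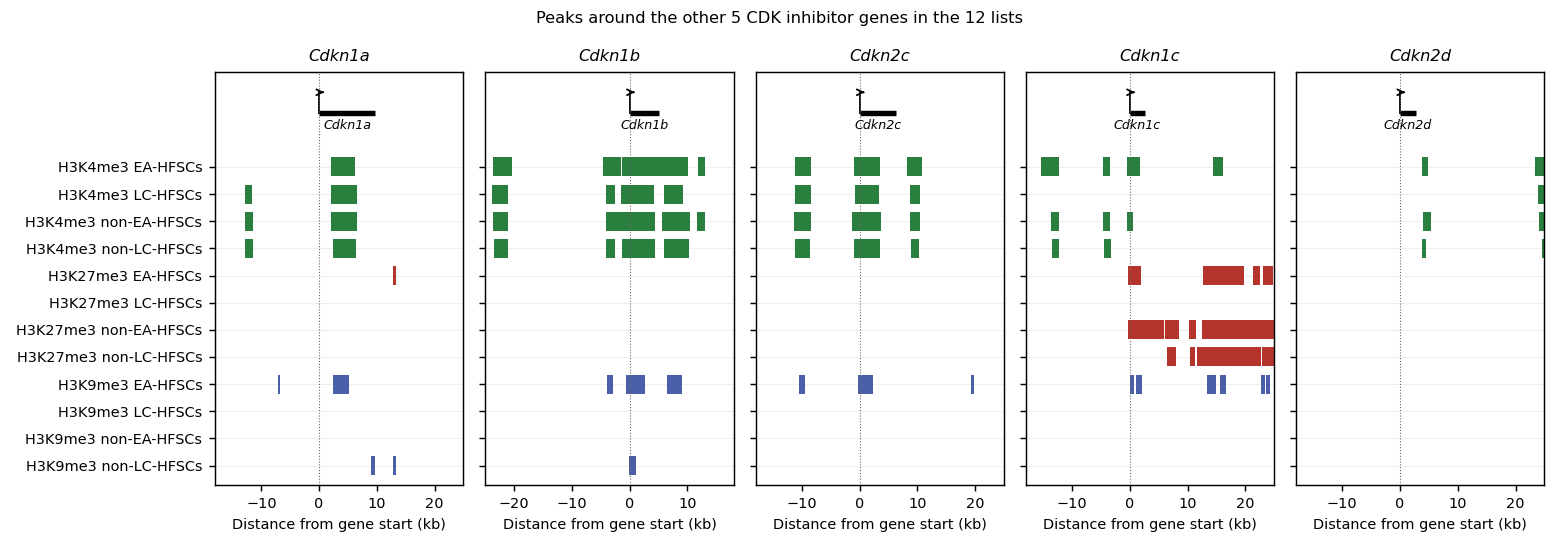
Peaks (bars) of the 12 lists around Cdkn1a, Cdkn1b, Cdkn2c, Cdkn1c and Cdkn2d, with the horizontal axis in kb from the annotated gene start, positive in the direction of transcription; the black line with an arrow is the gene. The H3K4me3 domain over Cdkn1b is 11498 bp wide and unbroken in EA-HFSCs, and Cdkn2d has no peak over its body in any list.

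The Cdkn2a-Cdkn2b locus carried H3K27me3 over most of its length in all 4 populations. Cdkn2a spans chr4:88920377-88940557 and Cdkn2b chr4:88952198-88956941, both on the minus strand, 36.6 kb in all. The ARF start at 88940557 lies 12.5 kb before the INK4a start at 88928096 and 16.4 kb beyond the Cdkn2b start. It is the upstream of the annotated starts there, and the transcript with the ARF first coding exon begins at 88940523. The coding sequences of INK4a and ARF share 317 bp of the same exon, at no base of which the codon position is the same, so that a mark over this exon cannot be assigned to either product.

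H3K4me3 marked the ARF and Cdkn2b starts and not the INK4a start. At the ARF start the peak measured 2932 bp in EA-HFSCs (score 669), 2277 bp in LC-HFSCs (122), 2405 bp in non-EA-HFSCs (1233) and 2594 bp in non-LC-HFSCs (868). At the Cdkn2b start it measured 2101 bp (735), 2325 bp (243), 1666 bp (1028) and 1893 bp (955) in the same order. Widths varied little between populations, and all 8 peaks overlapped H3K27me3 of their own population, that of LC-HFSCs at Cdkn2b only at its edge. The H3K4me3 peak nearest to the INK4a start was 11570, 11780, 11811 and 11884 bp away, which is the ARF peak in each list, so the count of Cdkn2a among genes with H3K4me3 rests on ARF.

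H3K27me3 extended over 42.9 kb in EA-HFSCs, in adjoining peaks of 28607 bp (score 1776) and 14291 bp (2372). It formed 1 peak of 49901 bp (447) in non-EA-HFSCs, the 12th widest of its list, and 1 of 42141 bp (697) in non-LC-HFSCs, the 10th widest, with rank shares of 0.0686% and 0.0655%. In LC-HFSCs it was made up of 3 peaks of 3636 bp (126), 11601 bp (199) and 10568 bp (50.5), over 25.9 kb, the widest of which ranked 52 of 1909 (2.72%). The domain covered 70.6% of the locus in LC-HFSCs and 99.3% in non-LC-HFSCs, whereas in non-EA-HFSCs it covered 100% and in EA-HFSCs all but the gap between its peaks. Further peaks lay just beyond these extents in EA-HFSCs and non-LC-HFSCs. With peaks under 1 kb apart merged, cover of the locus and 10 kb to either side was 49.7 kb in EA-HFSCs and 25.9 kb in LC-HFSCs. It was 49.9 kb in non-EA-HFSCs and 45.9 kb in non-LC-HFSCs.

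The part of the domain that the LC-HFSC list lacked lay at both ends. It covered the ARF start but ended 1419 bp upstream of the INK4a start and 1556 bp inside Cdkn2b from its start, so that the INK4a promoter, its exons and the Cdkn2b promoter were outside it. In EA-HFSCs and non-EA-HFSCs all 3 promoters lay under H3K27me3, and in non-LC-HFSCs the INK4a and ARF promoters did, with the domain ending 241 bp short of the Cdkn2b start. The H3K4me3 peak of Cdkn2b measured 2101 and 1666 bp where its start lay under H3K27me3 and 2325 and 1893 bp where it did not. These widths overlap between the groups. The split is also that between early anagen and late catagen, so H3K27me3 and stage cannot be told apart. The H3K27me3 list of LC-HFSCs covered 7.41 Mb of the genome against 58.2 Mb in EA-HFSCs, 68.3 Mb in non-EA-HFSCs and 35.9 Mb in non-LC-HFSCs, and the part of that difference in the shorter domain was not tested.

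**Figure D4:**
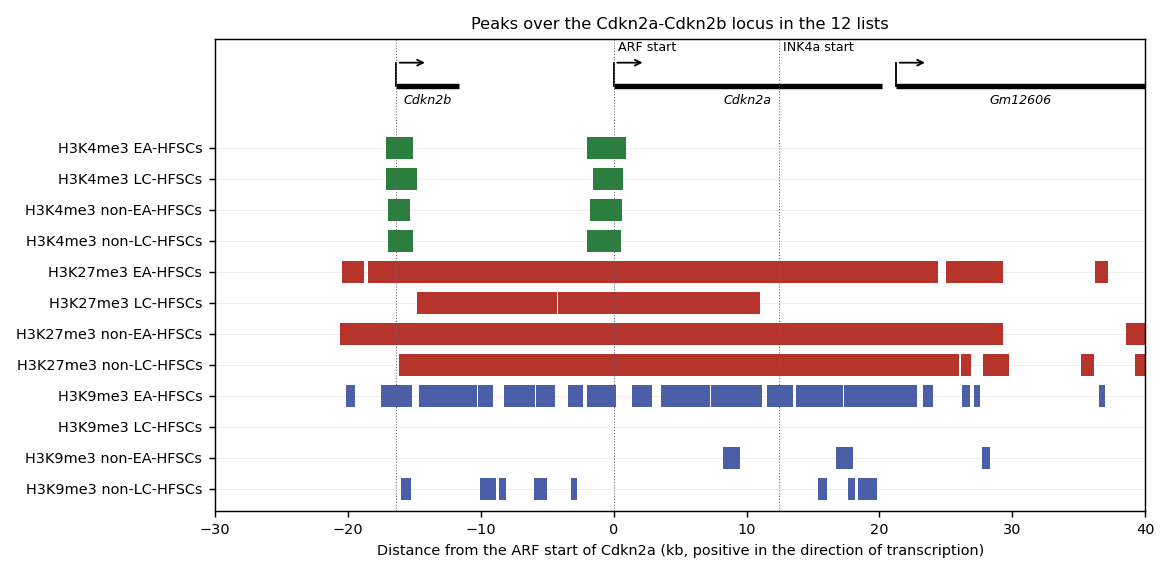
Peaks (bars) of the 12 lists over the Cdkn2a-Cdkn2b locus, with the horizontal axis in kb from the ARF start of Cdkn2a, positive in the direction of transcription, black lines for genes and dotted lines at the Cdkn2b, ARF and INK4a starts. The H3K27me3 peaks that overlap the locus, without those beyond its ends, span 42.9, 25.9, 49.9 and 42.1 kb from top to bottom. H3K4me3 lies at the Cdkn2b and ARF starts, and H3K9me3 covers most of the domain in EA-HFSCs and none of it in LC-HFSCs.

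H3K9me3 covered most of the locus in EA-HFSCs and little of it elsewhere. Over the locus and 10 kb to either side (56.6 kb) it covered 37.4 kb in 19 peaks in EA-HFSCs, 3.17 kb in 3 peaks in non-EA-HFSCs, 6.49 kb in 8 peaks in non-LC-HFSCs and 0 kb in LC-HFSCs. In EA-HFSCs 86.1% of the Cdkn2a body and 89.5% of the Cdkn2b body were covered, and 13 of the 15 peaks over the locus scored 100 or more. The highest, at chr4:88917721-88923197 (5477 bp, score 1198), lay over the 3′ exons of Cdkn2a and within the top 0.102% of its list by score. All the H3K9me3 peaks of the region overlapped H3K27me3 of their own population (19 of 19, 3 of 3 and 8 of 8), whereas 2, 0 and 1 of them overlapped H3K4me3.

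Overlap of H3K9me3 with the other marks was frequent in the EA-HFSC list as a whole. There, 24.5% of all H3K9me3 peaks overlapped H3K4me3 and 28.4% overlapped H3K27me3, against 0.354% and 1.13% in LC-HFSCs, 0.912% and 4.37% in non-EA-HFSCs and 9.70% and 12.4% in non-LC-HFSCs. The part of this list-wide overlap in H3K9me3 at the 6 marked members was not tested. At Cdkn1a, Cdkn1b, Cdkn2c and Cdkn1c the EA-HFSC peaks over the gene scored between 68.9 and 157, and at the Cdkn2a-Cdkn2b locus up to 1198. The H3K9me3 count of Cdkn2a in non-EA-HFSCs rests on a peak whose edge lay 2955 bp from the INK4a start, in the first intron of the ARF transcript, and no start of the locus was covered in that population. In non-LC-HFSCs it rests on edges 2938 bp from the INK4a start and 2739 bp from the ARF start, and at Cdkn2b the edge lay 391 bp inside the gene.

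In each list H3K27me3 covered more of the locus than of the surroundings of any other member. With 10 kb to either side, it covered 48.8 kb of the Cdkn2a-Cdkn2b region in EA-HFSCs, 25.8 kb in LC-HFSCs, 49.9 kb in non-EA-HFSCs and 44.9 kb in non-LC-HFSCs. In the same order it covered 2.35, 0, 10.2 and 3.48 kb at Cdkn1c, at Cdkn1a 0.628, 0, 0 and 0 kb, and at Cdkn1b, Cdkn2c and Cdkn2d 0 kb in all 4. H3K4me3 cover was greatest around Cdkn1b, with 15.9, 10.8, 14.6 and 11.6 kb, against 5.03, 4.60, 4.07 and 4.49 kb over the longer Cdkn2a-Cdkn2b region. The regions differ in length and no list has a replicate, so the order is a description.

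The genes on which the inhibitors act, or which act after them, were counted in the same way. All 20 genes of a list of the CDKs, cyclins, retinoblastoma family and E2F factors (Cdk2, Cdk4, Cdk6, the D, E and A cyclins, Rb1, Rbl1, Rbl2 and E2f1 to E2f8) had H3K4me3 at a start in all 4 populations, against 5 or 6 of the 7 inhibitors. Over all genes the share was 55.9% to 62.4%, depending on the population. Of the 20, H3K27me3 was found at a start of 1 in EA-HFSCs (14.0% of all genes), 0 in LC-HFSCs (3.73%), 3 in non-EA-HFSCs (16.8%) and 0 in non-LC-HFSCs (12.9%). These were E2f7 in EA-HFSCs (1199 bp, score 73.4) and E2f6 (1558 bp, 47.7), E2f7 (1875 bp, 67.7) and E2f8 (1390 bp, 49.7) in non-EA-HFSCs, all short peaks at genes of the atypical or repressive E2F factors. H3K9me3 lay at a start of 16, 0, 3 and 6 of the 20 in the same order of populations, beside 6, 0, 1 and 4 of the 7 inhibitors. Over all genes the shares were 47.9%, 0.505%, 4.14% and 14.1%.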

How the data were processed

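Histone marks were measured by ChIP-seq on micrococcal nuclease-cut chromatin of 4 sorted populations, with 1 ChIP sample per mark and 1 IgG sample per population. The submitters' processing notes name Trimmomatic 0.22, Bowtie2, MACS and mm9, and the authors pooled experimental replicates and called peaks against IgG of the same population. The deposited lists hold peak positions and a score, which is 10 times the negative log10 of the MACS p-value. The lowest scores correspond to a caller threshold of 1e-05 in the H3K4me3 lists and of 1e-04 elsewhere. Depths are not given in the lists, so precision per peak is unknown, and without replicate lists the populations could not be tested against each other.

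Peaks were intersected with GENCODE vM1 on NCBIM37, the assembly named mm9 by the submitters, after the last peak of each of the chromosomes was found to lie within its length. An overlap of at least 1 bp counted, within 3000 bp of any transcript start or over the gene body, and covered lengths took 10 kb to either side. Each count over members stands beside the share over all 22367 protein-coding genes, a complete count with no sampling error. Sequences were read from the NCBIM37 genome. Overlap steps were tested on simulated peaks. Python 3.11.15 and matplotlib 3.10.9 were used. The genes named with values were the 7 members, genes of the fixed list of 20 that lacked H3K4me3 or held H3K27me3, and annotated neighbours within 50 kb of Cdkn1c and the Cdkn2a-Cdkn2b locus. Neighbours of the other members, seen within 25 kb, were named after their values were seen. The members and lists were chosen with earlier results of these data known. Alternatives comprised score thresholds of 50 and 100, equal numbers of top-scoring peaks, windows of 0, 1000 and 5000 bp, gene starts alone, and merging of peaks under 1 kb apart.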

Additional observations from a re-analysis of the deposited data

Results flagged for a closer look

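At 3 members, H3K9me3 within 3000 bp of a start moved in opposite directions between early anagen and late catagen in HFSCs and in non-HFSCs. At Cdkn1a, 2784 bp lay under H3K9me3 peaks in EA-HFSCs with 0 bp for LC-HFSCs, against 0 bp in non-EA-HFSCs and 650 bp in non-LC-HFSCs. These lengths belong to different places, the EA-HFSC peak over the middle start and the non-LC-HFSC peak in the last exon. At Cdkn1b the covered length was 3423 bp in EA-HFSCs, 0 bp in LC-HFSCs, 0 bp in non-EA-HFSCs and 1052 bp in non-LC-HFSCs. At Cdkn2b, the p15 gene, it was 3655 bp in EA-HFSCs, 0 bp in LC-HFSCs, 0 bp in non-EA-HFSCs and 754 bp in non-LC-HFSCs. With 1 list per population these differences were not tested, and over all genes the share with H3K9me3 at a start was 47.9%, 0.505%, 4.14% and 14.1% in the same order. The opposite directions were still seen at Cdkn1a and Cdkn2b with a score of at least 50, and at Cdkn1b and Cdkn2b with a window of 1000 bp. With equal numbers of top-scoring peaks or a score of at least 100, no member had H3K9me3 at a start in non-LC-HFSCs. With top-scoring peaks, EA-HFSCs kept it at Cdkn2a and Cdkn2b and not at Cdkn1a or Cdkn1b.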

How the results depend on the processing

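Of 168 recomputed values, 143 stayed within 1.5 times the reported one and 25 moved further. A count could lose members and stay within this limit. With a score of 100, H3K27me3 at a start in EA-HFSCs fell to 2, without Cdkn1c, and H3K9me3 there fell to 4, without Cdkn1c and Cdkn2c. The same limit was used for covered lengths because no replicate spread exists. Counts of members with H3K4me3 stayed within that limit, at 5 in all 4 populations with equal numbers of top-scoring peaks, where Cdkn1c was lost from both early anagen lists, and at 7, 5, 7 and 7 with 5000 bp, where Cdkn2d was gained in 3 lists and Cdkn1c in non-LC-HFSCs. H3K27me3 at a start in LC-HFSCs (2 members) fell to 1, Cdkn2a, with a score of 100, a window of 1000 bp or the start base covered, and in non-LC-HFSCs to 1 with the start base covered. H3K9me3 at a start in EA-HFSCs (6) fell to 2, Cdkn2a and Cdkn2b, with equal numbers of top-scoring peaks. In non-EA-HFSCs (1) it fell to 0 with top-scoring peaks, 1000 bp, the gene start alone or the start base covered. In non-LC-HFSCs (4) it fell to 0 with a score of 100 and with top-scoring peaks, to 2 with 1000 bp and to 1 with the start base covered. Over the body, LC-HFSC H3K27me3 fell to 1 with a score of 100, EA-HFSC H3K9me3 to 2 and non-EA-HFSC H3K9me3 to 0 with top-scoring peaks, and non-LC-HFSC H3K9me3 to 1 with a score of 100 and with top-scoring peaks. At the locus, H3K27me3 in LC-HFSCs fell to 15.2 kb with a score of 100, and H3K9me3 to 23.5 kb in EA-HFSCs with top-scoring peaks, to 1.25 kb in non-EA-HFSCs with a score of 50 or 100 and 0 kb with top-scoring peaks, and to 2.39 kb in non-LC-HFSCs with a score of 100 or top-scoring peaks. Each of these settings leaves fewer peaks, fewer starts or a narrower window. The start-base and 5000 bp windows were chosen after seeing the data. No paired analysis was possible because each population and mark has 1 pooled list. Depth was not given list by list, although the paper states that more reads were used in LC-HFSCs than in EA-HFSCs. The sparse LC-HFSC lists of H3K27me3 and H3K9me3 limit what their missing peaks show.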

Other observations

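Neighbouring genes of the members carried their own marks. Gm12606, a noncoding transcript annotated at chr4:88881603-88919307, overlaps no exon of Cdkn2a and begins beyond its 3′ end on the same strand. The H3K27me3 domain of the Cdkn2a-Cdkn2b locus covered the Gm12606 start in EA-HFSCs and in both non-HFSC populations, and in LC-HFSCs it stopped before it. No H3K4me3 peak lay within 3000 bp of that start in any of the 4 lists.

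Among the neighbours of Cdkn1b and Cdkn2c, Gpr19 and Faf1, named after their values were seen, had H3K4me3 at their starts in all 4 populations. The peak at the start of Gpr19, a receptor gene upstream of Cdkn1b, measured 3374 bp in EA-HFSCs, 2764 bp in LC-HFSCs, 2568 bp in non-EA-HFSCs and 2492 bp in non-LC-HFSCs. The peak at the start of Faf1, which lies upstream of Cdkn2c on the opposite strand, measured 2777, 2859, 2939 and 2666 bp in the same order.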
